A study of Rattus norvegicus with 96 samples.

Results

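Solute carrier (SLC) genes encode membrane proteins that move small molecules and ions across cell and organelle membranes. The 132 genes described here are rows of the count table whose symbol has the form Slc, a family number, the letter a and a member number, and which the study's lists of genes named in nicotine sensitization (SST) or nicotine self-administration (SA). They were chosen from 142 matching symbols in those lists, after 10 genes with separate roles, such as the dopamine and vesicular acetylcholine transporters, were set aside, and they make up 132 of 17637 rows in the table. The lists of the male SST rats named 57 of them, those of the female SST rats 61 and those of the SA rats 49, and 95 stood in 1 list only. All 132 passed the filter on low counts. By the study's methods the SST lists compared nicotine with saline rats, while the SA lists compared the 2 directions of the cross among other rats that had all received nicotine. The nicotine differences of a member named only by lists of the same sex are given as a description, with no test. A member was tested in males only if a list of the females or of the SA rats, which by the study's methods were other animals, named it (98 members), and in females only if a list of the males or of the SA rats did (96 members). A sentence of the study's results, however, describes the males of SST and SA as a shared set.

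RNA was sequenced from the ventral tegmental area (VTA) and from the core and shell of the nucleus accumbens (NAc) of F1 rats of the inbred F344 and BN strains, with both directions of the cross spread over the groups. Of 32 rats, 16 of each sex, 8 per sex were given nicotine (NIC) at 0.4 mg/kg daily for 4 days and 8 were given saline (SAL), and the tissue was taken on day 17 by the labels with no further injection. The 94 libraries used came from 12 groups of sex, region and treatment, 10 of them with 8 rats and 2 with 7 (male VTA SAL and female NAc core NIC). No allele or transgene separated the groups, each rat gave hand-dissected tissue and not sorted cells, and VTA and NAc came from the same animals.

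Carriers differ in what they move and where they sit. Those of families 6, 17 and 32, with the glutamate transporters of family 1, clear transmitters such as glycine, GABA and glutamate from the synapse or load them into vesicles. Others bring glucose, lactate, amino acids and choline into brain cells, exchange chloride, bicarbonate and sodium to set cell volume, pH and the response to GABA, move zinc and other metals, or span the inner mitochondrial membrane, and many are strong in glia and at the vessel, meningeal and choroid plexus borders. By these roles, from textbook knowledge, the members were 12 transmitter carriers, 21 for amino acids and peptides, 23 for ions and pH, 18 for metals, 16 mitochondrial carriers, 16 for organic ions, vitamins and choline, 21 for sugars, monocarboxylates and metabolites, and 2 for nucleotide sugars. The other 3 match the pattern by name but are not carriers (Slc4a1ap, Slc9a3r1 and Slc9a3r2).

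Libraries held 15868529 to 27736905 counts. At the median the dissections carried the markers of their labels. The summed level of 5 dopaminergic neuron markers (of 6 looked for) had a median of 1314 CPM (counts scaled to the same total in every library) in VTA. It was 67.0 in the core and 26.6 in the shell of the NAc, although 1 of the 5, Nr4a2, was at 29.3 CPM in VTA and at 56.9 in the core. The sum of 6 of 7 striatal projection neuron markers had a median of 273 CPM in VTA against 2557 and 1978. The ranges were wide and overlapped between regions. The dopaminergic sum ran from 81.0 to 1810 CPM in VTA and from 26.8 to 100 in NAc core. The striatal sum ran from 304 to 4413 CPM in NAc core and from 240 to 3079 in NAc shell, against 194 to 330 in VTA. The libraries at these low ends were kept under their labels. A female NAc core NIC library (rat 1) that looked like VTA and a repeat run of 1 male VTA SAL rat were not used. Choroid plexus markers were at 2745 CPM in the female VTA NIC library of rat 2, at 927 CPM in female VTA SAL rat 16 and at 425 CPM in male NAc shell SAL rat 5, against medians of 15.8 to 30.7 in the 3 regions.

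The members were expressed over a wide range. Averaged over libraries, their median was 26.7 CPM, against 18.3 CPM for the 16879 genes tested and 26 CPM for the 7330 other genes that the same lists named. On average 7 members stayed under 1 CPM, 95 reached 10 CPM and 29 reached 100 CPM. CPM is not scaled by transcript length, so levels are compared between samples for a gene and not between genes. Within a group, rats differed by a median SD of 0.239 on the log2 scale for a member and 0.234 for all genes tested. The most variable were Slc47a1 (SD 1.47), which extrudes organic cations, Slc44a4 (1.11) and the synaptic vesicle zinc transporter Slc30a3 (0.96), and the steadiest were the zinc transporters Slc39a7 (0.080) and Slc39a14 (0.089).

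Regions were compared first, since the lists that named the members did not compare regions. The genes set aside include cell type markers with large region differences, such as Slc6a3 (medians of 855 CPM in VTA and 0.287 in NAc core). Most carrier genes were higher in VTA than in NAc. At an adjusted p under 0.05 (edgeR's quasi-likelihood test, Benjamini-Hochberg over all genes tested), 116 of 132 members differed between VTA and NAc core, where 81.6% of all genes did. Of these members 85 were higher in VTA (41.3% of all genes) and 31 lower (40.3%), and the median member differed by 0.32 on the log2 scale, against 0.01 for all genes. Among the other genes that the lists named, 85.5% differed, 44.9% higher and 40.7% lower in VTA. At least 2-fold differences held for 30 members (18.7% of all genes), 24 of them higher in VTA (10.4%) and 6 lower (8.26%). Against NAc shell, 111 members differed (80.8% of all genes), 82 higher in VTA (40.5%) and 29 lower (40.4%), with 19 (8.77%) and 9 (7.73%) at least 2-fold apart and a median of 0.34, against 0.00 for all genes. Here 85% of the other named genes differed, 43.8% higher and 41.1% lower in VTA. VTA was higher than both NAc regions for 78 members (37.1% of all genes) and lower than both for 25 (36.3%). Values of VTA and NAc core did not overlap for 18 members (9.89% of all genes) and those of VTA and NAc shell for 15 (6.58%).

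These are bulk samples, in which fewer cells of a type and less RNA per cell cannot be told apart. The summed levels of other cell types' markers also differed between the regions. Oligodendrocyte markers (5 of 7 found) had a median of 37732 CPM in VTA against 12458 in core and 10436 in shell, astrocyte markers (5 of 6) 3945, 1702 and 1770 CPM (with Gfap, Aqp4 and Aldh1l1 higher in VTA, but Slc1a2 at 15.3 against 23.1 and 21.1 CPM and Slc1a3 at 507 against 680 and 701 CPM lower), and meningeal fibroblast markers (8 of 9) 1625, 506 and 705 CPM, with 161 to 3129 CPM over VTA libraries. Their part in the members' differences was not tested. Without the 3 libraries highest in choroid plexus markers, a choice made after seeing the data, 30, 29 and 6 members were called at 2-fold between VTA and NAc core, VTA and NAc shell, and the 2 NAc regions, where 19.3%, 17.1% and 2.03% of all genes were.

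**Figure D1:**
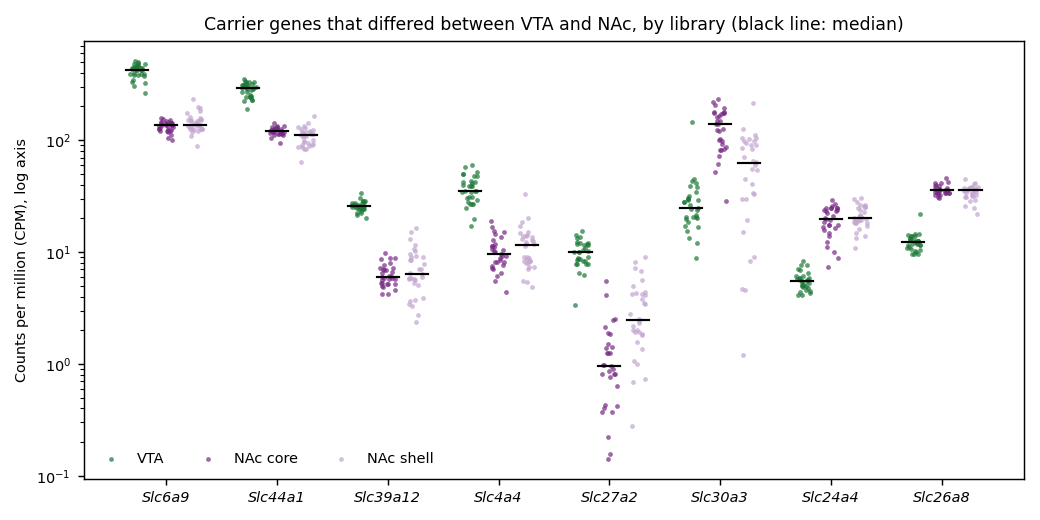
CPM (log axis) of 8 carrier genes in each of 31 VTA, 31 NAc core and 32 NAc shell libraries, 1 point per library, with the median as a black line. Slc6a9, Slc44a1, Slc39a12, Slc4a4 and Slc27a2 sit higher in VTA (medians 427 against 135 CPM in NAc core for Slc6a9), and Slc30a3, Slc24a4 and Slc26a8 lower (12.3 against 35.8 CPM for Slc26a8).

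Among the 12 transmitter carriers, 7 were higher in VTA than in NAc core, 3 were lower and 2 were not called, where 41.3% of all genes were higher and 40.3% lower. Slc6a9, the glycine transporter of glia, ran from 261 through a median of 427 to 514 CPM in VTA, from 99.5 through 135 to 159 CPM in NAc core, and from 88.8 through 138 to 231 CPM in NAc shell. Every VTA library was above every NAc library. The difference was 1.65 ± 0.05 (log2 ± SE) from NAc core (edgeR, adjusted p = 9.85e-49) and 1.54 ± 0.05 from NAc shell (adjusted p = 7.04e-47), and NAc core and shell differed by -0.11 (adjusted p = 0.0637). Slc6a5, the glycine transporter of glycinergic neurons, was at 2.80 to 55.2 CPM in VTA (median 7.02), at 0.584 to 8.5 in the core (3.30) and at 1.94 to 13.4 in the shell (6.48). Its groups overlapped, with 1.48 ± 0.18 between VTA and NAc core (edgeR, adjusted p = 7.10e-12), -1.01 ± 0.18 between NAc core and shell (adjusted p = 4.30e-06) and 0.47 ± 0.17 between VTA and NAc shell (adjusted p = 0.0105, and 0.110 with each animal as a replicate block).

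Other family 6 carriers were also higher in VTA. Slc6a20, a proline and imino acid transporter, had medians of 84.8, 24.8 and 28 CPM in VTA, NAc core and NAc shell, but its VTA libraries ran from 8.27 to 159 CPM and overlapped the NAc libraries, and it differed by 1.61 ± 0.15 from NAc core (edgeR, adjusted p = 2.71e-17). Slc6a12, which carries betaine and GABA, had medians of 8.87, 2.25 and 3.59 CPM and differed by 1.67 ± 0.18 from NAc core (edgeR, adjusted p = 4.06e-14). Slc6a6, the taurine transporter, had medians of 19.5, 10.5 and 9.15 CPM, a difference of 0.82 from NAc core and 0.89 from NAc shell. Slc6a17, which loads neutral amino acids into synaptic vesicles, went the other way with 345, 489 and 436 CPM, and differed by -0.49 (edgeR, adjusted p = 2.19e-14) and -0.34. The brain proline transporter Slc6a7 was lower in VTA than in NAc core (-0.36, edgeR adjusted p = 0.000425), while its difference from NAc shell was -0.12 (adjusted p = 0.244).

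The vesicular carriers of families 17 and 32 and the glutamate transporter of family 1 differed in both directions. Slc17a8, the vesicular glutamate transporter of scattered non-glutamatergic neurons, ran from 0.246 through 1.09 to 10.9 CPM in VTA, from 0.726 through 2.88 to 6.26 in the core and from 1.83 through 3.26 to 5.77 in the shell. VTA differed by -0.71 from NAc core (edgeR, adjusted p = 0.000900) and by -1.06 from NAc shell (adjusted p = 1.09e-06), with overlapping values. Slc32a1, which loads GABA and glycine into vesicles, had medians of 113 CPM in VTA, 120 in the core and 173 in the shell, and was highest in NAc shell (-0.47 for VTA minus NAc shell, adjusted p = 5.26e-06, and -0.41 for NAc core minus NAc shell, adjusted p = 0.000336, in edgeR). VTA and NAc core differed by -0.06 for this gene (adjusted p = 0.541). Slc17a9, the vesicular nucleotide transporter, differed by 0.32 and 0.38 between VTA and the NAc regions, and Slc1a6, a glutamate transporter best known from cerebellar Purkinje cells, by 0.27 and 0.58. The lysosomal sialic acid carrier Slc17a5 was not called in any of the 3 comparisons (-0.02 ± 0.05 between VTA and NAc core).

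Outside this class, the largest differences from NAc core towards VTA, among members averaging at least 1 CPM in the higher region, were in carriers of several kinds. The organic cation exporter Slc47a1 had medians of 9.42 CPM in VTA, 0.210 in the core and 1.42 in the shell, with the lowest library of each region at 0, and differed by 4.65 ± 0.37 from NAc core (edgeR, adjusted p = 2.35e-20). Slc27a2, which takes up and activates long-chain fatty acids, ran from 3.39 through 10.1 to 15.4 CPM in VTA and from 0.142 through 0.949 to 5.46 in NAc core, a difference of 3.15 ± 0.19. The mitochondrial NAD carrier Slc25a51 differed by 2.31, with medians of 4.88 and 1.10 CPM. Both regions overlapped in 1 or more libraries for these 3 genes. The zinc importer Slc39a12 did not overlap: 20.1 to 33.5 CPM in VTA (median 25.6), 4.22 to 9.75 in the core (6.04) and 2.37 to 16.6 in the shell (6.40), with a difference of 2.03 ± 0.08 from NAc core (edgeR, adjusted p = 1.00e-38). Slc4a4, the sodium bicarbonate cotransporter of astrocytes, had medians of 35.1, 9.56 and 11.6 CPM and differed by 1.87 ± 0.13. The proton-coupled amino acid carrier Slc36a2 reached 2.18 CPM in VTA (median 0.686) and at most 0.0563 CPM in NAc core, near the limit of detection there, so no fold is given.

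Further 2-fold members, chosen after their values were seen, carry choline, monocarboxylates and chloride. Slc44a1, a choline transporter, was at 192 to 351 CPM in VTA and 94.5 to 143 CPM in NAc core without overlap, a difference of 1.23. Slc16a1, which carries lactate and other monocarboxylates, was at 41.4 to 80.4 against 20.5 to 33.1 CPM, also without overlap, a difference of 1.34. The sodium, potassium and chloride cotransporter Slc12a2 was at 177 to 362 against 94.3 to 159 CPM, a difference of 1.2.

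The 6 members that were at least 2-fold lower in VTA than in NAc core included 4 that move anions, bicarbonate or calcium. Slc30a3, which loads zinc into synaptic vesicles, had the largest difference, -2.17 ± 0.22 (edgeR, adjusted p = 2.25e-15), and ran from 8.93 through 24.8 to 145 CPM in VTA, from 28.7 through 138 to 231 CPM in NAc core and from 1.2 through 62.0 to 213 CPM in NAc shell. The 3 regions overlapped widely for this gene. Nrgn, the only one of 5 cortical projection neuron markers found, had medians of 250, 2258 and 857 CPM in the same regions, and its part in the difference was not tested. Slc24a4, a sodium, calcium and potassium exchanger, was at 4.13 to 8.36 CPM in VTA (median 5.51) and at 7.31 to 29 in NAc core (19.8), a difference of -1.77 ± 0.09 (edgeR, adjusted p = 4.42e-32). Slc26a8, an anion carrier best known from sperm, was at 9.60 to 21.7 CPM in VTA (12.3) and at 30.5 to 45.6 in NAc core (35.8), with no overlap and a difference of -1.54 ± 0.05 (adjusted p = 3.03e-47). Slc4a10, which brings in sodium and bicarbonate in neurons, was at 45.9 to 134 CPM in VTA (59.2) and at 124 to 210 in NAc core (152), a difference of -1.27 (adjusted p = 3.38e-39). Slc26a10 differed by -1.29 and Slc7a4, of the cationic amino acid carrier family, by -1.07. Against NAc shell the same 6 members were at least 2-fold lower in VTA, joined by Slc17a8, the sodium and proton exchanger Slc9a5 (-1.10) and the organic cation exporter Slc47a2 (-1.16).

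The 250 bases before the annotated start of 4 of these genes are shown as examples of the members described above: Slc6a9 and Slc39a12 were higher in VTA and Slc26a8 lower without overlap, and Slc30a3 had the largest difference towards NAc core. They come from RefSeq on assembly GRCr8, read 5' to 3' on the gene's strand: Slc6a9 is at chr5:136659826-136660075 (plus strand), Slc39a12 at chr17:82262107-82262356 (plus), Slc30a3 at chr6:30997164-30997413 (plus) and Slc26a8 at chr20:6751185-6751434 (minus). Capitals mark TATAAA (the TATA box), CCAAT (the CAAT box), GGGCGG (the GC box) and CACGTG (an E-box), searched on both strands with TGACGTCA (the cyclic AMP response element).
Slc6a9: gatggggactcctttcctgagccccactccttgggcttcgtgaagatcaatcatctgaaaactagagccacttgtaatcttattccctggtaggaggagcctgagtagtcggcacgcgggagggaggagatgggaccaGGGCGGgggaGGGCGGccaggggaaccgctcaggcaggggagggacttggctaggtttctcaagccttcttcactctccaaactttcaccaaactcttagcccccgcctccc
Slc39a12: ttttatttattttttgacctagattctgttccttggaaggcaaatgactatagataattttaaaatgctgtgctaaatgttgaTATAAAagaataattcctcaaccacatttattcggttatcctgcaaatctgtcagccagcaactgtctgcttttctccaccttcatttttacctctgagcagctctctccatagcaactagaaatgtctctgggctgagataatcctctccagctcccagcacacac
Slc30a3: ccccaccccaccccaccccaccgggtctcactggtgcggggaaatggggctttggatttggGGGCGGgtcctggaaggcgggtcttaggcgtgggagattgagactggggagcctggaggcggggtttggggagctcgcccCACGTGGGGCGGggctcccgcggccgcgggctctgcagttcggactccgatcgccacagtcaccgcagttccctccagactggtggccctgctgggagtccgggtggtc
Slc26a8: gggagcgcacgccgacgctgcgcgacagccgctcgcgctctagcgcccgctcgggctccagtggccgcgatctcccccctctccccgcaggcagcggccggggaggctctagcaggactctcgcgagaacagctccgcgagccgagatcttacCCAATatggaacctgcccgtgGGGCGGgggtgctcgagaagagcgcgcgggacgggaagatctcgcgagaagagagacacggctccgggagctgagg
Slc6a9 held 2 GGGCGG, Slc39a12 1 TATAAA, Slc30a3 2 GGGCGG and 1 CACGTG next to one of them, and Slc26a8 1 CCAAT and 1 GGGCGG. Of the 132 members, 103 matched a promoter by symbol. GGGCGG was in 56.3% of these and in 30.5% of all 33469 promoters, CACGTG in 19.4% and 5.59%, TATAAA in 6.80% and 12.9%, CCAAT in 34% of both, and TGACGTCA in 2.91% and 1.59%. The median GC content was 59.6% for the members' windows and 51.2% for all. Among the 21 matched members at least 2-fold higher in VTA than NAc core, 10 held GGGCGG and 6 CACGTG, and among the 5 that were lower, 2 and 2 did. The members' set held 1 promoter per symbol and only expressed genes. The set of all promoters held every entry and was not limited to genes expressed here, so the shares are not a like comparison. The letters are a description and not a site of binding.

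Across the classes, the balance between VTA and NAc core differed from group to group in these counts. Of all genes, 41.3% were higher in VTA and 40.3% lower. Of the 21 carriers of sugars, monocarboxylates and metabolites, 18 were higher in VTA and 3 lower, with a median of 0.44 on the log2 scale. Of the 16 carriers of organic ions, vitamins and choline, 12 were higher, 1 lower and 3 not called (median 0.59). The metal carriers gave 13 higher, 4 lower and 1 not called (0.35), the amino acid and peptide carriers 13, 5 and 3 (0.31), the transmitter carriers 7, 3 and 2 (0.30) and the mitochondrial carriers 10, 3 and 3 (0.16). The ion and pH carriers were even, with 10 higher, 10 lower and 3 not called (0.05), and they held 4 of the 6 members that were at least 2-fold lower. The classes were not tested against each other.

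**Figure D2:**
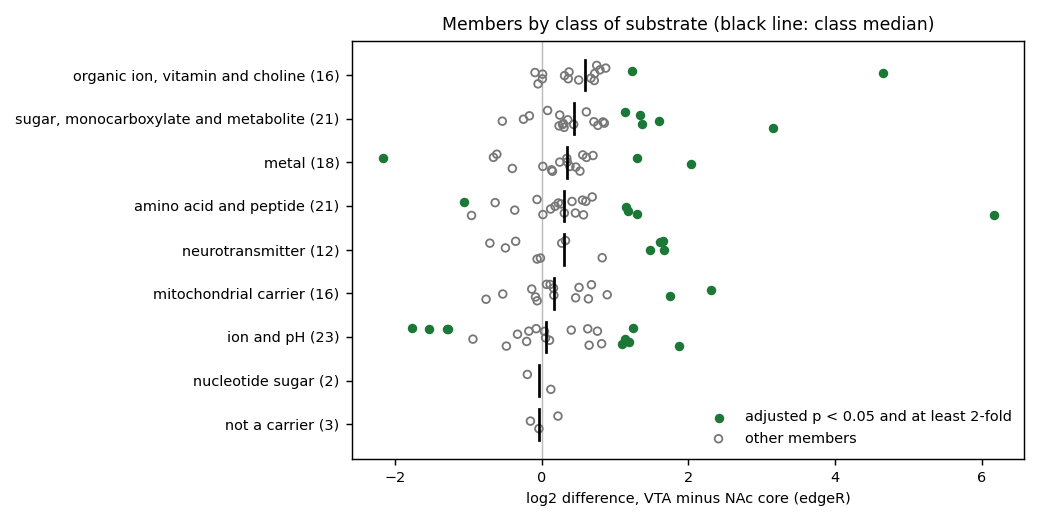
log2 difference of each member between VTA and NAc core (horizontal axis, edgeR) by class of substrate, with the number of members in brackets and the class median as a black line. Filled points are members with an adjusted p under 0.05 and at least a 2-fold difference; the medians run from 0.59 for organic ions, vitamins and choline to 0.05 for ions and pH among the 7 classes with 12 or more members.

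NAc core and shell differed less. At the adjusted threshold 52 members differed (32.3% of all genes), 26 higher in NAc core (15.8%) and 26 higher in NAc shell (16.5%), and 1 and 5 of them by at least 2-fold (0.699% and 1.28% of all genes, 1.98% in both directions). Among the other genes that the lists named, 37.7% differed, 17.3% higher in NAc core and 20.4% higher in NAc shell. Values of the 2 regions did not overlap for 0 members (0.0118% of all genes). The member at least 2-fold higher in NAc core was Slc30a3 (1.10, edgeR adjusted p = 1.31e-05). Slc24a2, an exchanger of sodium, calcium and potassium in neurons, ran from 45.4 through 71.2 to 168 CPM in NAc core and from 21.8 through 40.4 to 75.1 in NAc shell, a difference of 0.74. Smaller differences towards NAc core held for Slc16a6 (0.39), the peptide transporter Slc15a2 (0.36) and Slc1a6 (0.31). The 5 at least 2-fold higher in NAc shell were Slc47a1 (-2.07), Slc27a2 (-1.42), Slc47a2 (-1.17), Slc44a4 (-1.06) and Slc6a5 (-1.01), and the neutral amino acid transporter Slc38a4 followed (-0.75, edgeR adjusted p = 0.0154). Meningeal marker sums had medians of 506 CPM in the core and 705 in the shell, and their part in these differences was not tested.

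Nicotine and saline rats were then compared within each sex and region, the comparison the study made to describe lasting effects of earlier nicotine. By edgeR 0 members, and 0% of all genes, passed an adjusted p under 0.05 in each of the 6 comparisons. DESeq2 called 1, Slc26a2 in male NAc core (adjusted p = 0.0454), where it called 4 of the 16879 genes, and it called 0 to 9 genes and no member in each of the other 5 comparisons. The smallest adjusted p of a tested member (edgeR) was 0.866 for male VTA, 0.406 for male NAc core and 1 for male NAc shell. Among females it was 0.509 for VTA, 0.732 for the core and 0.466 for the shell. The counts below are at the unadjusted p under 0.05 that the study used, over members named from other rats, and in each the members are read against all genes tested.

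In males, 4 of 98 members (4.08%) passed in VTA, where 5.62% of all genes did, with 1 higher in nicotine (2.35% of all genes) and 3 lower (3.28%). In NAc core 17 of 98 (17.3%) passed, 15 higher and 2 lower, where 9.83% of all genes did. The higher ones compare with 5.78% of all genes and 8.68% of all genes named from other rats, and the lower ones with 4.06% of all genes. In NAc shell 2 of 98 passed, where 2.46% of all genes did, with 1 higher (1.02%) and 1 lower (1.44%). In females, 8 of 96 passed in VTA, where 9.24% of all genes did, with 2 higher (4.04%) and 6 lower (5.2%). In NAc core 5 of 96 passed, where 6.45% did, with 4 higher (2.87%) and 1 lower (3.57%), but 2 higher and 3 lower with preparation batch as a covariate (4.59% of all genes), and in NAc shell 11 of 96, where 10.1% did, with 6 higher (5.25%) and 5 lower (4.88%). In these fits male NAc core was the comparison in which the share of members exceeded that of all genes by the most. In a single fit of all 12 groups it was female VTA (20.8% of members, 11.8% of genes), with male NAc core at 16.3% and 9.54%. In male NAc core, 11 of 61 members named by the female lists and 9 of 49 named by the SA lists passed, and the median member differed by 0.05 on the log2 scale, against -0.01 for all genes. Most preparation batches of this comparison held rats of a single treatment, so nicotine and batch are largely confounded in it.

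**Figure D3:**
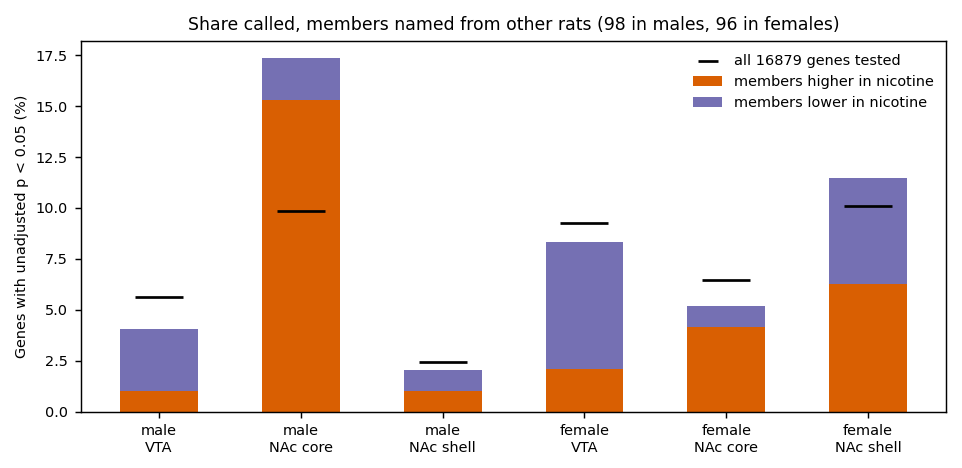
Share of tested members with an unadjusted p under 0.05 in each comparison of nicotine with saline rats (vertical axis in percent, bars stacked by direction), with the share among all 16879 genes as a black line. Male NAc core is the bar farthest above its line (17 of 98 members against 9.83% of genes), and none of these members passed the adjusted threshold in edgeR.

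In male NAc core the members with the smallest p included carriers of sulfate and creatine. Slc26a2, a sulfate transporter, was at 1.69 to 5.76 CPM in the nicotine rats (median 2.58) and 0.368 to 1.59 CPM in the saline rats (1.33). The groups did not overlap, which held for 0.0533% of all genes. The difference was 1.2 ± 0.27 (edgeR, adjusted p = 0.406), with p = 0.000155 by a two-sided exact permutation test, the smallest that 8 against 8 rats can give, and without any single library it stayed between 0.97 and 1.28. Slc16a12, a creatine transporter, was at 9.81 to 21.4 CPM with nicotine (12.1) and 5.77 to 10.4 with saline (8.35), with all 8 nicotine rats above the saline median (0.62 ± 0.15, edgeR adjusted p = 0.406, exact permutation p = 0.000311).

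Other members that passed in male NAc core at the unadjusted threshold, with no adjusted p under 0.05, were mostly ion, sugar and organic ion carriers. Higher in nicotine were the iodide carrier Slc5a5 (0.57), the glucose transporter Slc2a12 (0.60), the proton exchanger Slc9a2 (0.41), Slc6a12 (0.93), Slc16a11 (0.44), the potassium and chloride cotransporters Slc12a7 (0.41) and Slc12a5 (0.22), Slc25a23 (0.28), the magnesium carrier Slc41a1 (0.17), Slc47a1 (1.87), the folate carrier Slc19a1 (0.24) and the organic anion carrier Slc22a7 (0.73). Lower were the ADP and ATP carrier Slc25a4 (-0.13) and Slc25a46 (-0.15). By class, 5 of 17 tested ion and pH carriers, 4 of 17 of sugars and metabolites, 3 of 13 of organic ions, 1 of 7 transmitter carriers, 1 of 14 metal carriers, 1 of 9 mitochondrial carriers and 0 of 17 amino acid and peptide carriers were higher, against 5.78% of all genes, and 2 of the 9 mitochondrial carriers were lower.

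Markers of other cell types moved with this group. The summed level of the 8 meningeal fibroblast markers was 428 to 1245 CPM in the nicotine rats (median 720) and 295 to 672 CPM in the saline rats (543), and 7 of the 8 were higher in nicotine at an unadjusted p under 0.05 with a median difference of 0.53 on the log2 scale. Among the 8 are Slc6a13 and Slc13a4, carriers that were set aside from the members, and none of the 8 was at 0 in any NAc core library. The nicotine rat 9 was highest in that sum (1245 CPM) and also in Slc26a2, Slc16a12 and Slc6a12. Without its library 13 of 98 members passed, where 6.20% of all genes did. The cortical projection neuron marker Nrgn was lower with nicotine (log2 difference -0.35 at an unadjusted p under 0.05), with 1075 to 2816 CPM (median 2414) against 2191 to 3343 CPM (2817). Choroid plexus markers were higher in 1 of 8 (median log2 difference 0.45), with sums of 13.7 to 48.2 CPM against 7.47 to 23.4 CPM. Endothelial markers were higher in 1 of 3 (median 0.04) and oligodendrocyte markers in 1 of 5 (median 0.09). The part of these markers in the members' differences was not tested.

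**Figure D4:**
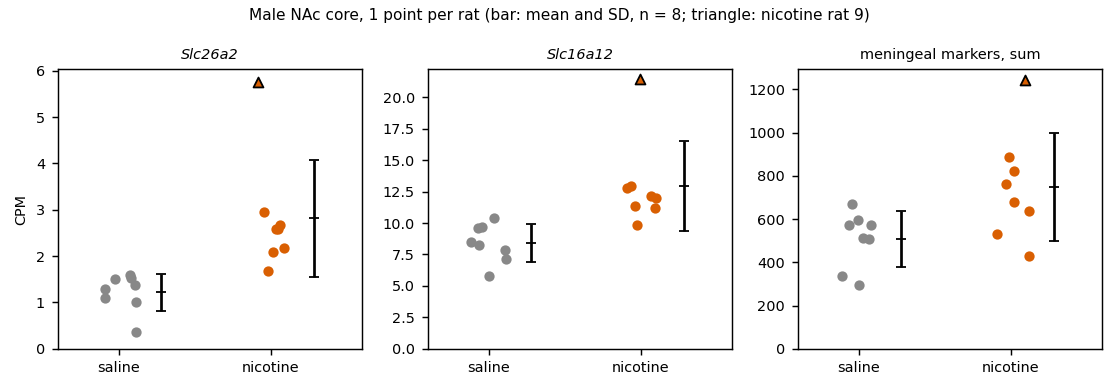
CPM of Slc26a2 and Slc16a12 and the summed CPM of 8 meningeal fibroblast markers in male NAc core, 1 point per rat, with the mean and SD of 8 rats beside each group. The nicotine values of Slc26a2 (1.69 to 5.76 CPM) lie above every saline value, and nicotine rat 9, the triangle, is highest in Slc26a2, Slc16a12 and the marker sum.

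In male VTA the 3 members with the smallest p were lower with nicotine. Slc24a2, the neuronal calcium exchanger, was at 54.5 to 126 CPM in 8 nicotine rats (median 92.5) and 83.2 to 168 CPM in 7 saline rats (139), with 0 of 8 nicotine rats above the saline median (-0.53 ± 0.17, edgeR adjusted p = 0.866, exact permutation p = 0.0141). Slc4a4 was at 19.9 to 49.5 against 34.6 to 59.6 CPM (-0.44, exact permutation p = 0.0269). Slc7a14, of the cationic amino acid carrier family, was at 1.52 to 2.71 against 1.97 to 3.69 CPM (-0.48, exact permutation p = 0.0270). All 3 groups overlapped, and Slc7a14 no longer passed without saline rat 1 or saline rat 2. With the library preparation batch as a covariate, which few batches share between treatments, the differences were -0.33, -0.10 and -0.11. The oligodendrocyte marker sum, 28971 to 41776 CPM with nicotine and 33037 to 46527 with saline, was also lower with nicotine at the median (34211 against 42930 CPM). Cholinergic neuron markers were lower in 2 of 3 (median log2 difference -1.41), with sums of 2.71 to 6.28 CPM (median 3.64) against 2.27 to 19.7 CPM (5.19). Astrocyte markers were lower in 1 of 5 (median -0.09), with sums of 3145 to 4776 CPM (4050) against 2903 to 5866 CPM (4328), and dopaminergic markers higher in 1 of 5 (median 0.28), with 989 to 1810 CPM (1571) against 830 to 1687 CPM (1131). The part of these markers was not tested.

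In male NAc shell 1 member passed in each direction. Slc25a11, the mitochondrial oxoglutarate and malate carrier, was at 108 to 133 CPM with nicotine and 123 to 145 CPM with saline (-0.11, exact permutation p = 0.0246), and Slc7a8, a large neutral amino acid transporter, at 121 to 145 against 95.3 to 141 CPM (0.17, exact permutation p = 0.0522). Leaving out 1 library kept the unadjusted p under 0.05 in 6 and 5 of 16 fits. Slc26a11, next in order, did not pass (-0.27, exact permutation p = 0.0662). With preparation batch as a covariate 16 of 98 members passed, 14 higher and 2 lower, where 11.9% of all genes did. Choroid plexus markers were lower in 1 of 8 (median log2 difference -0.58), with sums of 11.5 to 58.5 CPM against 28.2 to 425 CPM, and their part was not tested.

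In female VTA the glucose transporter Slc2a12 was at 7.90 to 20.9 CPM with nicotine (median 16.0) and 15.2 to 26.6 CPM with saline (23.7), with 0 of 8 nicotine rats above the saline median (-0.54 ± 0.20, edgeR adjusted p = 0.509, exact permutation p = 0.0145). The potassium and chloride cotransporter Slc12a4 was at 47.8 to 65.2 against 55 to 75.1 CPM (-0.21, exact permutation p = 0.0228), and Slc22a7 at 0.439 to 0.835 against 0.346 to 0.787 CPM (0.62, exact permutation p = 0.00591). The other members that passed were Slc5a5 (-0.78), Slc13a3 (-0.61), Slc16a12 (-0.48), Slc41a1 (-0.22) and Slc7a14 (0.51). Meningeal markers summed to 161 to 1829 CPM with nicotine (median 1060) and 751 to 2380 CPM with saline (1493), with 2 of 8 lower at an unadjusted p under 0.05. Endothelial markers, of which 3 were found, were all lower (median log2 difference -0.26), with sums of 163 to 216 CPM (median 195) against 197 to 326 CPM (214). Of 5 astrocyte markers 1 was higher and 1 lower (median -0.22), with median sums of 3505 against 4078 CPM. Microglia markers were lower in 1 of 3 (median -0.13) and striatal markers higher in 1 of 6 (median 0.07). Cholinergic neuron markers summed to 3.46 to 36.3 CPM (11.0) against 3.25 to 11.6 CPM (5.27), with 1 of 3 higher. The dopaminergic sum was 81.0 CPM in nicotine rat 2, which also had the highest choroid plexus sum, against at least 887 CPM in the saline rats, and without that rat the differences were -0.50 for Slc2a12, -0.19 for Slc12a4 and 0.65 for Slc22a7 and 5 members passed, 2 higher and 3 lower, where 7.51% of all genes did. The part of these markers was not tested. With preparation batch as a covariate 3 of 96 members passed, 0 higher and 3 lower (1.75% of all genes), and the differences were -0.53 for Slc2a12, -0.09 for Slc12a4 and 0.21 for Slc22a7, none of them past the unadjusted threshold.

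In female NAc core the copper importer Slc31a1 was at 12.3 to 16.6 CPM in 7 nicotine rats and 10.4 to 13.4 CPM in 8 saline rats (0.25 ± 0.08, edgeR adjusted p = 0.732, exact permutation p = 0.00249), but with preparation batch as a covariate the difference was -0.0377. Slc7a6, an exchanger of cationic and neutral amino acids, was lower with 78.6 to 100.3 against 83.8 to 109 CPM (-0.17, exact permutation p = 0.0191). Slc25a48 was at 0.282 to 1.29 against 0 to 0.526 CPM (1.29, exact permutation p = 0.0225). The taurine transporter Slc6a6 (0.36) and the amino acid carrier Slc36a4 (0.37) also passed. Microglia markers were higher in 1 of 3 (median log2 difference 0.11), with sums of 214 to 231 CPM against 196 to 220 CPM, and their part was not tested.

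In female NAc shell Slc12a5, which keeps chloride low in mature neurons, was at 115 to 151 CPM with nicotine (median 131) and 138 to 181 CPM with saline (158), with 0 of 8 nicotine rats above the saline median (-0.22 ± 0.07, edgeR adjusted p = 0.466, exact permutation p = 0.00963). Slc25a4 was at 586 to 687 against 510 to 654 CPM (0.13, exact permutation p = 0.0246), but -0.10 with batch as a covariate, where 0 of 96 members passed. Others that passed were Slc6a12 (-0.69), Slc24a4 (-0.29), Slc25a23 (-0.16), Slc44a4 (1.22), the choline transporter Slc44a1 (0.26), Slc13a5 (0.17), the heme carrier Slc48a1 (0.14) and Slc25a46 (0.12). Striatal projection neuron markers were lower with nicotine in 6 of 6 found at an unadjusted p under 0.05 (median log2 difference -0.37), with sums of 1069 to 2279 CPM (median 1694) against 1705 to 2443 CPM (2173). Oligodendrocyte markers were higher in 2 of 5 (median 0.30), with sums of 7632 to 19412 CPM (11995) against 7303 to 12073 CPM (10578). Meningeal fibroblast markers were lower in 1 of 8 (median -0.28), with sums of 397 to 696 CPM (549) against 361 to 1146 CPM (593), and 1 of 8 choroid plexus and 1 of 5 dopaminergic markers were higher (medians 0.13 and 0.20). The part of these markers in the members' differences was not tested.

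The largest differences among the members of each comparison's own list that averaged at least 1 CPM in the higher group are given here as values. No test is given for those that no list of other rats named, and those that such a list also named are counted above. Over the 6 comparisons there were 127 listings, 73 of them higher with nicotine, with absolute log2 differences from 0.0839 to 1.6 (median 0.26). The lists were made from these same rats, so the values are a description. In male VTA the largest were Slc17a8 (-1.6, with 0.246 to 1.84 CPM against 0.503 to 4.76), Slc25a48 (-1.35) and Slc36a2 (1.21). In male NAc shell Slc7a7, an exchanger of cationic and neutral amino acids, was at 2.81 to 3.79 CPM with nicotine and 1.28 to 2.59 CPM with saline (0.55), followed by the zinc transporter Slc30a7 (0.36) and Slc15a2 (0.26). In female VTA they were Slc6a5 (1.08), Slc22a25 (-0.95) and Slc5a5 (-0.78). In female NAc core they were Slc47a2 (-0.86), the zinc transporter Slc39a5 (-0.69) and the glutamine transporter Slc1a5 (0.39), and in female NAc shell Slc44a4 (1.22), Slc6a12 (-0.69) and Slc39a12 (0.45). In male NAc core they were Slc26a2, Slc6a12 and Slc16a12, given above, and under the floor of 1 CPM stood Slc27a2 (1.03) and Slc22a7 (0.73).

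Both sexes listed 4 members for the same region, and in each the male and female differences had opposite signs. In VTA Slc12a4 differed by 0.14 in males (63.0 to 83.2 CPM with nicotine, 60.2 to 71.3 with saline, exact permutation p = 0.0449) and by -0.21 in females. Slc7a14 differed by -0.48 in males and 0.51 in females (1.12 to 4.28 CPM with nicotine, 1.56 to 2.75 with saline, exact permutation p = 0.0918). Slc6a5 differed by -0.68 in males and 1.08 in females, where nicotine rats 1 and 8 were at 43 and 55.2 CPM and the other 6 between 2.80 and 12.1, so the female value rests on those 2 rats. In NAc core Slc25a4 differed by -0.13 in males and 0.08 in females.

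**Figure D5:**
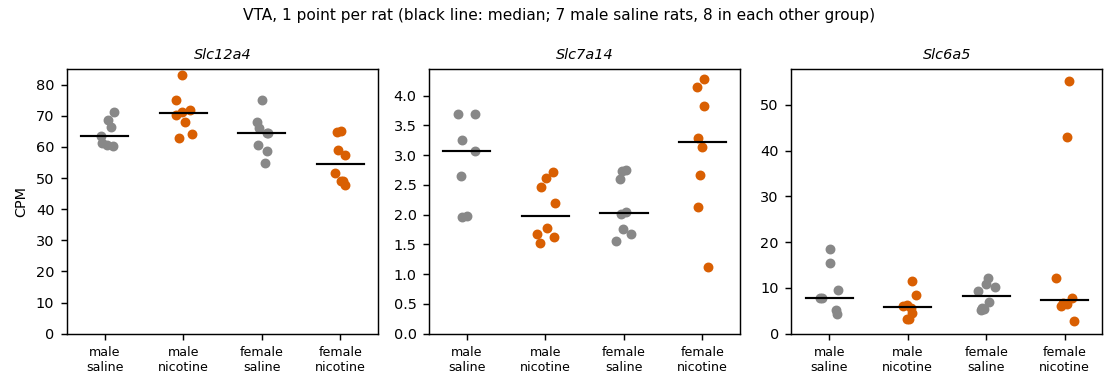
CPM of Slc12a4, Slc7a14 and Slc6a5 in VTA of male and female saline and nicotine rats, 1 point per rat, with the median as a black line. Female nicotine rats are lower in Slc12a4 (median 54.6 against 64.6 CPM) and male nicotine rats higher (70.8 against 63.6), and 2 female nicotine rats stand far above all others in Slc6a5.

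Calls in both sexes were counted over the 49 members that the SA lists named, whether or not an SST list named them too, since by the study's methods that choice used no values of these rats. Of these, 1 passed the unadjusted threshold in both male and female VTA, Slc12a4, with opposite signs (83 of 93 among all genes). Its male call was lost without nicotine rat 12, 13 or 15, without saline rat 2, 6 or 7, and with all mapped libraries. Male NAc core and female NAc shell shared 3, among them Slc25a23 and Slc25a46, all with opposite signs, where 145 of 174 of all genes shared had opposite signs. Male NAc core and female VTA shared 0 of the 49 members, where 253 of all genes were shared, 225 of them with opposite signs. These comparisons hold different rats.

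The difference between the sexes was tested as an interaction over the 49 members named by the SA lists. At an unadjusted p under 0.05, 7 passed in VTA (11% of all genes), 5 in the core (8.89%) and 4 in the shell (8.07%), and 0 passed the adjusted threshold in edgeR or DESeq2. Among all genes that the SA lists named, 11.6%, 12.1% and 10.2% passed in the same order. In VTA the smallest p values were of Slc12a4 (female minus male -0.34 ± 0.10, edgeR adjusted p = 0.350), Slc19a1 (-0.42) and the zinc importer Slc39a10 (0.17). In NAc core they were of Slc26a2 (-1.2 ± 0.39, adjusted p = 0.516), which differed by 0.00 in females and 1.2 in males, Slc7a6 (-0.25) and Slc16a11 (-0.50). In NAc shell they were of Slc44a4 (2.22 ± 0.90, adjusted p = 0.579), Slc7a8 (-0.36) and Slc7a6 (-0.24). By the labels the libraries of the sexes came from different boxes and, apart from 1 preparation batch, from different batches, so sex and batch cannot be told apart in these differences.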

How the data were processed

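The authors trimmed reads with fastp 0.20.0, quantified them with Salmon 0.12.0 on rat Rnor version 6 transcripts and summed them to genes with tximport. The deposited table holds the resulting whole-number counts per gene for 96 libraries, of which 94 were used, and no normalization had been applied. Reads that map to several genes are shared out by the model, so close paralogs can trade counts. Gene symbols came from the study's lists, of which only the names were used. Counts were scaled by TMM and tested with edgeR 4.0.16 (quasi-likelihood) in R 4.3.3 with limma 3.58.1. DESeq2 1.42.0 was an alternative. Genes needed a normalized count above 10 in at least 3 libraries, which left 16879, and p was adjusted over these by Benjamini-Hochberg. Log2 CPM used a prior count of 2.

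The regions were compared in 1 fit of all 12 groups, nicotine and saline within each sex and region, and the sexes by an interaction within a region. Permutation tests were exact and two-sided, on log2 CPM. The members, lists and tests were chosen with earlier results of these data known. Named are the transmitter carriers, the 5 members with the largest region difference each way among those averaging at least 1 CPM in the higher region, the 3 with the smallest p (or, as a description, the 3 largest of a list's own members averaging at least 1 CPM in the higher group) in a nicotine comparison, those listed in both sexes, those without overlap and the 3 smallest p of an interaction, and examples beyond this rule (other members of a count, Slc44a1, Slc16a1, Slc12a2, Slc7a4, Slc36a2, Slc9a5, and Slc44a4, Slc27a2 and Slc22a7 where they stand under that level) were chosen after their values were seen. Some results that this rule selects are not reported here. Other SLC genes were not analysed here, since the table pairs no symbols with its identifiers.

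The labels number the rats, so regions are paired by animal: the deviations of the same rat from its group means correlated with a median of 0.0337 between VTA and NAc core, 0.0330 between VTA and NAc shell and 0.0870 between NAc core and shell, against -0.0085 and -0.0126 for different rats in the first and last pair. Rats are separate animals, and depth sets the precision of members under 1 CPM. The scripts were tested on simulated counts.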

Additional observations from a re-analysis of the deposited data

Results flagged for a closer look

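In 64 groups tested, 8 values lay apart from the other rats of their group. Chance would give about 1 in 20 for independent groups, but several of these values came from the same library. In male VTA these were Slc17a8 in nicotine rat 11 (1.84 CPM, the next 0.761) and Slc25a48 in saline rat 1 (5.06 CPM, the next 0.864). In male NAc core nicotine rat 9 was high in Slc26a2 (5.76 CPM, the next 2.95), in Slc16a12 (21.4 CPM, the next 13.0) and in Slc6a12 (7.57 CPM, the next 3.96), and saline rat 3 was low in Slc26a2 (0.368 CPM, the next 1.01). In females they were Slc22a7 in VTA saline rat 10 (0.787 CPM, the next 0.442) and Slc7a6 in NAc core saline rat 16 (83.8 CPM, the lowest, the next 98.6).

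The library labelled female NAc core nicotine rat 1, which no comparison used, stood beyond every other NAc core library in the direction of VTA for 25 of the 30 members at least 2-fold different between the 2 regions, and nearer to the VTA median for all 30.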

How the results depend on the processing

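The region differences moved little. With each animal as a replicate block, 116, 109 and 57 members passed the adjusted threshold (116, 111 and 52 without it) in VTA against NAc core, VTA against NAc shell and NAc core against shell, with no change of sign, where 81.8%, 81.2% and 33.7% of all genes passed (81.6%, 80.8% and 32.3% without it). Slc25a48, Slc16a11, Slc22a8 and Slc6a5 were lost in 1 comparison each. Another fit left out female VTA NIC rat 2 and the NAc core and shell libraries of male SAL rat 1. It called 30, 29 and 6 members at 2-fold in the same order, where 19.5%, 17.0% and 2.09% of all genes were. With saline rats alone 36, 29 and 6 members were called at 2-fold (20.4%, 17.9% and 1.84% of all genes, against 18.7%, 16.5% and 1.98% with all rats), and Slc38a4 and Slc1a6 no longer passed for NAc core against shell.

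The nicotine counts moved more. Preparation batch as a covariate gave 0 members in female NAc shell (11 without it), 3 in female VTA (8) and 16 in male NAc shell (2), while the share of all genes called went from 10.1% to 3.73%, from 9.24% to 1.75% and from 2.46% to 11.9%, and turned Slc31a1 in female NAc core to -0.0377 and Slc25a4 in female NAc shell to -0.10. A single fit of all 12 groups gave 20 in female VTA, 0 in male NAc shell and 4 for the interaction in VTA (7 in the fit by region), where 11.8%, 4.40% and 11.4% of all genes passed. DESeq2 gave 1 member in male NAc shell (2.52% of all genes), its size factors in edgeR also 1 (2.47%), and its test 1 at the adjusted threshold in male NAc core, among 4 genes in all. All mapped libraries gave 12 in female NAc core, 11 higher and 1 lower (5 without the library set aside), where 8.5% of all genes passed. In male NAc core the batch covariate gave 22 members (17 higher and 5 lower) where 11.6% of all genes passed. In each comparison most preparation batches held rats of a single treatment, so nicotine and batch are largely confounded with or without the covariate. The causes were not tested.

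Leaving out 1 library at a time gave 2 (without saline rat 2) to 11 (without saline rat 4) members in male VTA, 13 (without nicotine rat 9) to 21 (without saline rat 1) in male NAc core, 0 (without nicotine rat 16) to 4 (without saline rat 2) in male NAc shell, 4 (without nicotine rat 8) to 16 (without nicotine rat 5) in female VTA, 3 (without nicotine rat 3) to 11 (without nicotine rat 2) in female NAc core and 7 (without nicotine rat 1) to 15 (without nicotine rat 7) in female NAc shell, and 0 members at the adjusted threshold throughout. The shares of all genes called moved too, from 4% to 9.21%, 6.2% to 11.8%, 1.77% to 4.92%, 6.61% to 12.3%, 5.14% to 7.94% and 7.06% to 14.8% in the same order. Over all settings 286 counts stayed within 1.5 times and 38 did not, and of the values of named members 510 kept direction and side of the threshold, 43 lost the threshold and 2 reversed. Depth limits mainly the 7 members under 1 CPM on average.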
